A study of Homo sapiens with 6 samples.

Results

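The DLG scaffold family was followed here as 7 genes, namely DLG1, DLG2, DLG3, DLG4, DLG5, DLGAP1 and DLGAP4, of the 58884 genes in the deposited RNA-seq count table. Members were found by matching each gene symbol to its Ensembl identifier in GENCODE, and all 7 were present in the table and passed the filter on low counts. The starting point of the set was DLG2, which the study had itself picked from genes that were up-regulated in these libraries and had less of the repressive histone mark H3K27me3 at the promoter, and the other members are its paralogs and binding partners. The values of DLG2 are therefore a description, and its call below is not independent evidence.

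RNA came from DLD1 parental cells and from DLD1 p85β K477A/R478A mutant cells (p85β KR-AA), with 3 libraries of each. DLD1 is a human colorectal cancer line that carries a helical domain mutation of PIK3CA, the gene for the catalytic PI3K subunit p110α, and both groups share it. In the mutant cells a lysine and an arginine of a nuclear localization sequence of p85β, the regulatory PI3K subunit encoded by PIK3R2, were changed to alanine by CRISPR/Cas9 knock-in at the endogenous gene. The comparison sets parental cells beside knock-in cells in which, in the study, p85β failed to enter the nucleus. Every mutant library comes from derived knock-in cells, so the mutation and the derivation of the clones cannot be told apart. The study describes knock-in clones, but the labels do not say which clone gave which library, or whether the 3 libraries of a group came from separate cultures, so that the p-values measure the spread between these libraries, which may be technical.

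DLG1 to DLG4 belong to the membrane-associated guanylate kinases (MAGUKs), proteins built from PDZ domains, an SH3 domain and a guanylate kinase-like domain that has lost enzyme activity. They hold receptors, channels and adhesion molecules in place under the membrane. In epithelial cells DLG1 acts with SCRIB and LLGL proteins in the module that sets the basolateral side of the cell, while in neurons DLG4 (PSD-95), DLG2 (PSD-93), DLG3 (SAP102) and DLG1 (SAP97) organize the postsynaptic density. DLG5 is a more distant MAGUK with a role in epithelial polarity. DLGAP proteins bind the guanylate kinase-like domain of the DLG proteins and link them to SHANK scaffolds.

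Promoter sequences of members that were and were not called are shown because the mark that led the study to DLG2 is laid down by the Polycomb complex PRC2, which in mammalian cells is found mostly at CG-rich promoters. Windows of 300 bases, from 250 before to 50 after an annotated start, were taken from RefSeq (GRCh38.p14), where 6 of the 7 members had 27 windows among 35116. CG dinucleotides are in capitals, and each sequence is written 5′ to 3′ on the strand of the gene. The first pair are the DLG2 windows with the most and the fewest CG, followed by the richest window of DLGAP1, the other gene with almost no parental reads, and by the richest windows of DLG3 and DLGAP4, which were read abundantly in both groups.
DLG2 chr11:85628324-85628623 (minus strand): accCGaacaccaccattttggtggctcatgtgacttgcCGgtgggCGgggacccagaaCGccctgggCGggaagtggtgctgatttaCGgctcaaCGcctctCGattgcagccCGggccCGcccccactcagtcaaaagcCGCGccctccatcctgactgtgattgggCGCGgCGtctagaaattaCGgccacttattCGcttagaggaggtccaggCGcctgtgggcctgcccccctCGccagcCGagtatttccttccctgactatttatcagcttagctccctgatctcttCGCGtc
DLG2 chr11:84923372-84923671 (minus strand): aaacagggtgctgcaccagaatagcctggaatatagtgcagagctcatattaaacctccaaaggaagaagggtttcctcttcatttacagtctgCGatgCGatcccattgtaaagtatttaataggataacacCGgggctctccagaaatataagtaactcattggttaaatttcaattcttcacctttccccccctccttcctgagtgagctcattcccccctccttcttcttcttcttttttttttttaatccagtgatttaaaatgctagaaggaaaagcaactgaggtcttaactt
DLGAP1 chr18:3874711-3875010 (minus strand): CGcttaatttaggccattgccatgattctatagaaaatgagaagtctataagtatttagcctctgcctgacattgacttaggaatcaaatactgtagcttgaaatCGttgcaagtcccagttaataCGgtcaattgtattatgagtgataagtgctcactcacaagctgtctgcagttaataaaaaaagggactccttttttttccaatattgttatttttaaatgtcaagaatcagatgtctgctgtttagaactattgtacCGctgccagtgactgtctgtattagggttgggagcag
DLG3 chrX:70454927-70455226 (plus strand): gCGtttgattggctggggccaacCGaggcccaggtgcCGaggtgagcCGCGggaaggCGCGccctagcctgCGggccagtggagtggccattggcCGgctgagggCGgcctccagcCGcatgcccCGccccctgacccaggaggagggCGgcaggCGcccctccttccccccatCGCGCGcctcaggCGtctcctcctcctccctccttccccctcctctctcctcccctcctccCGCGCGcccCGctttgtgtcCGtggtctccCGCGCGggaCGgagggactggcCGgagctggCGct
DLGAP4 chr20:36461218-36461517 (plus strand): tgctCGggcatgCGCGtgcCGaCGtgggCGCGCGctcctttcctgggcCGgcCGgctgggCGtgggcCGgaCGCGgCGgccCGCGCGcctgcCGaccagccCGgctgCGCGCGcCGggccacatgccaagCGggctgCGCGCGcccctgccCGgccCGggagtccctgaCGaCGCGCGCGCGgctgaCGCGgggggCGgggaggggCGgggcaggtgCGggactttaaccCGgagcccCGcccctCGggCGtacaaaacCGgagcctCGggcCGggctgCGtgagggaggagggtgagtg

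These windows held 22, 3, 4, 29 and 49 CG in the order shown, against a median of 14 over all windows. The 9 windows of DLG2 ranged from 3 to 22 CG, so that its starts lay on both sides of that median. Of all windows, 37.7% held at least 22 CG and 81.8% at least 3. Both DLGAP1 windows were poor, with 1 and 4 CG, and 75.5% of all windows held at least 4. They began at 3845309 and 3874711 in GRCh38, well inside the gene, whose upstream end is at 4455307 in GRCh37. Starts nearer to that end had no window, so their CG was not counted. The 3 windows of DLG3 held 9 to 29 CG and the 3 of DLGAP4 held 5 to 49, and those of DLG1 and DLG4, which were called, reached 27 and 28 from lows of 4. Of all windows, 24.2% held at least 29 CG and 1.6% at least 49. CG was counted on 1 strand, since its reverse complement is CG. A count of letters says nothing about which start was used in these cells, as the deposited counts pool all starts of a gene, and the histone mark was not measured in these files.

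Library totals were 20301932 to 20873475 counts in parental cells and 20301396 to 26712816 counts in p85β KR-AA cells, so that 3 counts in a library, used here as the limit of detection, equal 0.0818 to 0.2185 CPM (counts per 1000000 of the library total after TMM scaling). Genes with a count numbered 18922 to 19639 in parental and 23158 to 24315 in mutant libraries. PIK3R2 itself was at 34.8, 12.31 and 19.31 CPM in parental and 13.72, 16.57 and 4.555 CPM in mutant libraries, and a gene total cannot show a change of 2 residues. Among 12 markers of colon epithelium, 10 exceeded 1 CPM in every parental library and 10 in every mutant one. LGALS4 did so only in parental and CEACAM5 only in mutant libraries. The summed level of the 12, most of it from KRT8, KRT18 and KRT19, was 57230 to 79260 CPM in parental and 8831 to 10340 CPM in mutant libraries. Of the 11 tested, 6 were down-regulated, CDX2 among them, and 3 up-regulated, namely CDH1 (97.3 ± 33.8 to 344 ± 20.2 CPM), CDH17 and CEACAM5. Over all tested genes 17.6% were down-regulated and 28.6% up-regulated. The sum over 10 mesenchyme markers was 7.646 to 10.3 CPM in parental and 6320 to 7233 CPM in mutant libraries, with 3 and 8 markers over 1 CPM and with COL1A2 at 0 in the mutant. FN1 (4.28 ± 0.624 to 4992 ± 408 CPM) and VIM (0.803 ± 0.182 to 1772 ± 70.1 CPM) gave nearly all of the mutant sum. Of the 8 tested, 6 were up-regulated, against 28.6% of all tested genes, and 0 down-regulated, while COL1A1 and PDGFRB were not called. Of 12 neuron markers 3 exceeded 1 CPM in parental and 6 in mutant libraries, with sums of 672.9 to 789.3 and 587.8 to 643.9 CPM, and with DCX and ELAVL4 at 0 in all 6 libraries. TUBB3 gave most of the parental sums (561 ± 43.96 and 211 ± 11.4 CPM). ENO2 gave the largest part of the mutant ones (155.5 ± 21.3 and 255 ± 17.8 CPM), and neither was called. Of the 7 neuron markers tested 4 were up-regulated, against 28.6% of all tested genes, and 0 down-regulated. The 4 were NEFL (0 counts in parental libraries, 131.5 ± 1.97 CPM in the mutant), GAP43, SYT1 and MAP2. CEACAM5, NEFL, GAP43, SYT1, MAP2 and every up-regulated mesenchyme marker but FN1 reached the filter on low counts only through the mutant libraries. Their calls are therefore a description. These marker levels move with the groups beside every result on the DLG genes, and their part in those results was not tested. In bulk RNA, fewer cells of a type and less RNA per cell cannot be told apart.

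Part of the DLG family was up-regulated in p85β KR-AA cells, and no member was called down-regulated. A gene was called up- or down-regulated when its fold change was at least 3 and its adjusted p was under 0.01 (edgeR quasi-likelihood test, Benjamini-Hochberg adjustment over 16059 genes). Of the 7 members, DLG1, DLG2, DLG4 and DLGAP1 were up-regulated in p85β KR-AA cells and 0 were down-regulated, where 28.6% of all tested genes were up-regulated and 17.6% down-regulated. DLG2 and DLGAP1 reached the filter on low counts only through the mutant libraries, where they are high, so that their calls are given as a description. Of the 5 members that passed the filter in both groups, DLG1 and DLG4 were up-regulated and 0 were down-regulated, against 19.9% and 20.1% of the 12607 genes that did so. With TMM and no offset, no member was lower at an unadjusted p under 0.05 in edgeR, and 0 were down-regulated with DESeq2. Offsets that remove any relation with gene length put DLG3 (log2 −1.52, adjusted p = 1.2e-06 in edgeR) and DLG5 (−0.97, adjusted p = 0.0011) lower. Offsets for length and GC content did so for DLG3 (−0.86, adjusted p = 0.00206 in edgeR) and DLG1 (−0.47, adjusted p = 0.031). None of these falls reached 3-fold, and DLG2 and DLGAP1 stayed up-regulated with either offset model. In 6 of 7 members every mutant library lay above every parental library, which held for 47.0% of tested genes. The median log2 fold change of the 7 genes was 1.68, and that of all tested genes was 0.32. This median and the 6 of 7 include DLG2 and DLGAP1, and are therefore a description too. The 5 members past the filter in both groups had log2 fold changes of 2.11 (DLG4), 1.68 (DLG1), 1.02 (DLG5), 0.38 (DLGAP4) and 0.18 (DLG3).

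**Figure D1:**
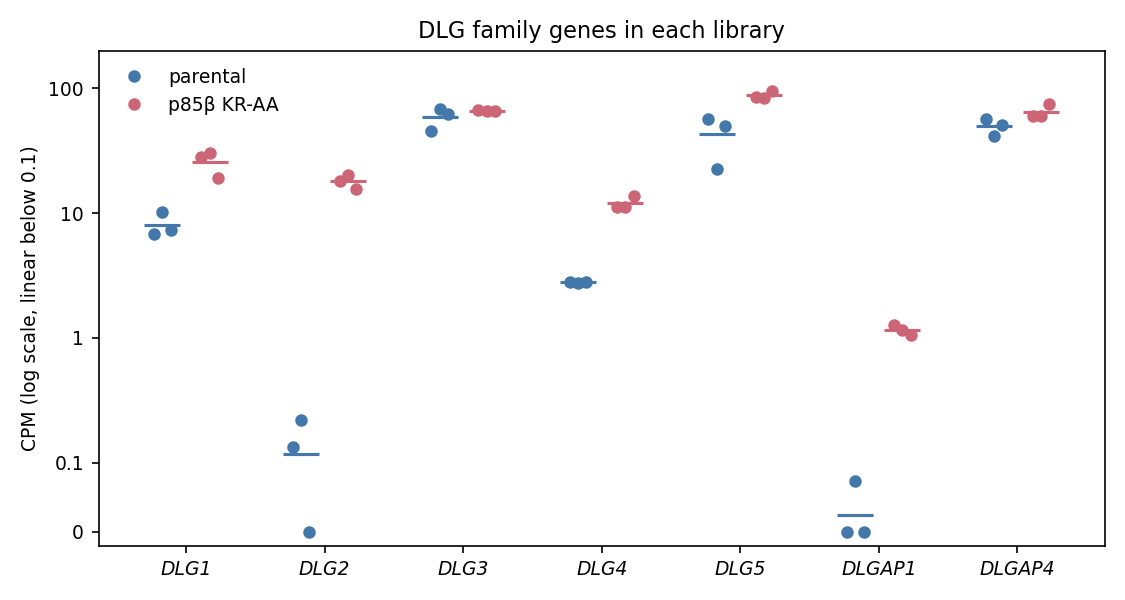
Level of each DLG family gene in each of the 6 libraries, in TMM-scaled CPM on a vertical axis that is logarithmic above 0.1 and linear below it. Points are libraries and short lines are group means (n = 3). DLG2 and DLGAP1 lie near 0 in parental cells, where they hold 5 and 1 counts over 3 libraries, whereas the groups overlap only for DLG3.

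DLG2 went from almost no reads to a level per length whose range overlapped with that of its paralog DLG1. Within every mutant library it stayed below DLG1. The DLG2 gene (ENSG00000150672) spans 2173 kb of chromosome 11, from 83166055 to 85339379 on the minus strand in GRCh37, and has 50 annotated transcripts. The parental libraries held 2, 3 and 0 counts, that is 0.1328, 0.2185 and 0 CPM, of which the highest is at the limit of detection. In the mutant libraries 657.97, 583 and 431 counts were found, or 17.95, 20.3 and 15.7 CPM. All 3 mutant libraries thus stood far above the parental ones and within a narrow range of each other. Summed over libraries, DLG2 was 162.1 times higher in the mutant, with an exact 95% interval of 69.3 to 499.9 that covers counting error only. The fitted log2 fold change of 7.27 (SE 0.406) ran from 6.61 without parental library 3 to 8.0 without parental library 2, and was 5.92 with a length offset and 5.34 with both a length and a GC offset. The 12 annotated genes that overlap DLG2 held at most 1.33 counts on average in a group.

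DLG1, the member of the family best known from epithelia (ENSG00000075711, chromosome 3, 196769431 to 197026201, minus strand), was read at 6.775, 10.12 and 7.341 CPM in parental and at 28.07, 30.47 and 19.13 CPM in mutant libraries. No parental library reached the lowest mutant one. The mean rose from 8.08 ± 1.79 to 25.9 ± 5.97 CPM (SD, n = 3 each). The 3.21-fold rise (log2 1.68, SE 0.223, 95% interval 1.199 to 2.168, adjusted p = 1.42e-05 in edgeR) lay close to the threshold of 3-fold, and tested against that fold it gave an adjusted p of 0.322. The log2 fold change fell under the threshold without parental library 1 (1.56), parental library 3 (1.58) or mutant library 2 (1.56), and its direction turned once length and GC content were both removed by offsets (log2 −0.47).

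DLG4 encodes PSD-95, the abundant scaffold of excitatory synapses (ENSG00000132535, chromosome 17, 7090506 to 7123160, minus strand). Its parental values were nearly equal, at 2.79, 2.767 and 2.776 CPM from 42, 38 and 45 counts. The mutant libraries gave 11.21, 11.18 and 13.77 CPM from 411, 321 and 378 counts. The groups were far apart beside their spread, with a 4.33-fold rise (log2 2.11, SE 0.205, 95% interval 1.67 to 2.56, adjusted p = 8.08e-07 in edgeR), which also passed when tested against a fold of 3 (adjusted p = 0.00894). DLG4 overlaps ACADVL, an enzyme of mitochondrial fatty acid oxidation on the opposite strand, which fell from 1196 ± 144 to 274 ± 6.28 CPM (SD, n = 3 each). The sources used here do not state whether strand was used in counting, and DLG4 moved in the direction opposite to its neighbour. With offsets DLG4 was no longer called, at a log2 fold change of 0.26 for length and of 1.31 for length and GC content.

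DLG3, the X-linked paralog (ENSG00000082458, 69664685 to 69725340, plus strand), had the most reads of DLG1 to DLG4. Levels were 45.56, 68.31 and 62.25 CPM in parental and 67.54, 65.6 and 65.73 CPM in mutant libraries. The groups overlapped, and the mutant libraries varied far less among themselves than the parental ones. With TMM and no offset the difference was a log2 fold change of 0.18 (SE 0.155, adjusted p = 0.308 in edgeR). Its 95% interval of −0.162 to 0.513 leaves out a 3-fold change in either direction but does not cover the choice of scaling. With library totals the value was 1.10 (adjusted p = 8.45e-05 in edgeR). The sign turned with an offset for gene length (−1.52, SE 0.171) and with both a length and a GC offset (−0.86).

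DLG5 (ENSG00000151208, chromosome 10, 79550549 to 79686513, minus strand) was 2.03-fold higher in the mutant and fell short of the fold threshold. Parental libraries gave 57.06, 22.57 and 50.09 CPM, with the second far below the others, and mutant libraries gave 84.75, 84.36 and 95.1 CPM. Every mutant library was above every parental one. The means were 43.2 ± 18.2 and 88.1 ± 6.09 CPM (SD, n = 3 each), with a log2 fold change of 1.02 (SE 0.255, 95% interval 0.470 to 1.578, adjusted p = 0.00242 in edgeR). Without parental library 2 the log2 value was 0.69 (adjusted p = 4e-04 in edgeR), and with an offset for gene length the direction turned (−0.97). DLG5 counts were not whole numbers in any of the 6 libraries, as can happen when reads are divided between genes, and whether that was so here is not given in the sources used.

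The DLG-binding scaffolds behaved unlike each other. DLGAP1 (ENSG00000170579, chromosome 18, 3496030 to 4455307, minus strand), a component of the postsynaptic density, had 0, 1 and 0 counts in parental and 46, 33 and 29 counts in mutant libraries. The mutant level was low but even, at 1.255, 1.149 and 1.057 CPM. Its pooled ratio was 52.35, with an exact 95% interval of 9.20 to 2087 set by the single parental read, and the fitted log2 fold change was 5.39 (SE 0.714), given as a description because the gene passed the count filter only in the mutant. That value ran from 4.83 without parental library 3 to 7.84 without parental library 2, which holds the read, and was 3.76 with a length offset and 4.16 with both a length and a GC offset. DLGAP1-AS1, a noncoding gene on the opposite strand of the same locus, also rose, from 1.26 ± 0.677 to 5.31 ± 0.627 CPM (SD, n = 3 each; log2 2.095, adjusted p = 7.01e-05 in edgeR). Other noncoding genes on that strand were not called, with log2 fold changes of 0.41 for DLGAP1-AS2 (adjusted p = 0.0795 in edgeR), at 4.39 ± 0.589 and 5.86 ± 0.327 CPM, and of 0.36 for ENSG00000266401 (adjusted p = 0.593 in edgeR). Without knowledge of strand, reads where these genes overlap DLGAP1 cannot be assigned.

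DLGAP4 (ENSG00000080845, chromosome 20, 34894258 to 35157040, plus strand), which is expressed well outside the brain, was already abundant in parental cells. It had 56.86, 41.65 and 51.02 CPM in parental and 60.04, 59.5 and 74.59 CPM in mutant libraries, so that the groups were apart by a small margin. The log2 fold change was 0.38 (SE 0.155, 95% interval 0.038 to 0.713, adjusted p = 0.0396 in edgeR) and did not pass the thresholds. It turned with an offset for gene length (−0.18), grew to 1.22 with both a length and a GC offset, and was 1.29 with library totals.

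The choice of scaling carries weight in these libraries. TMM and library totals differed by 0.92 in the median log2 fold change of all tested genes, and with totals 7052 genes were up-regulated and 973 down-regulated, or 87.88% of called genes up in place of 61.94%. Relative to the median of all tested genes, the TMM values were 6.95 for DLG2, 5.07 for DLGAP1, 1.79 for DLG4, 1.36 for DLG1, 0.70 for DLG5, 0.06 for DLGAP4 and −0.14 for DLG3. Against the same median, library totals gave 6.92, 4.95, 1.79, 1.38, 0.69, 0.05 and −0.14. TMM and library totals differ by a single factor for each library. The near equality of these values was therefore fixed in advance and is no sign of stability. Offsets that remove any relation of the values with gene length differ from gene to gene, and they changed the differences between members. The members' deposited lengths were 3337 to 7644 bases against a median of 2796 over tested genes. With either offset model 2 members, DLG2 and DLGAP1, remained up-regulated.

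**Figure D2:**
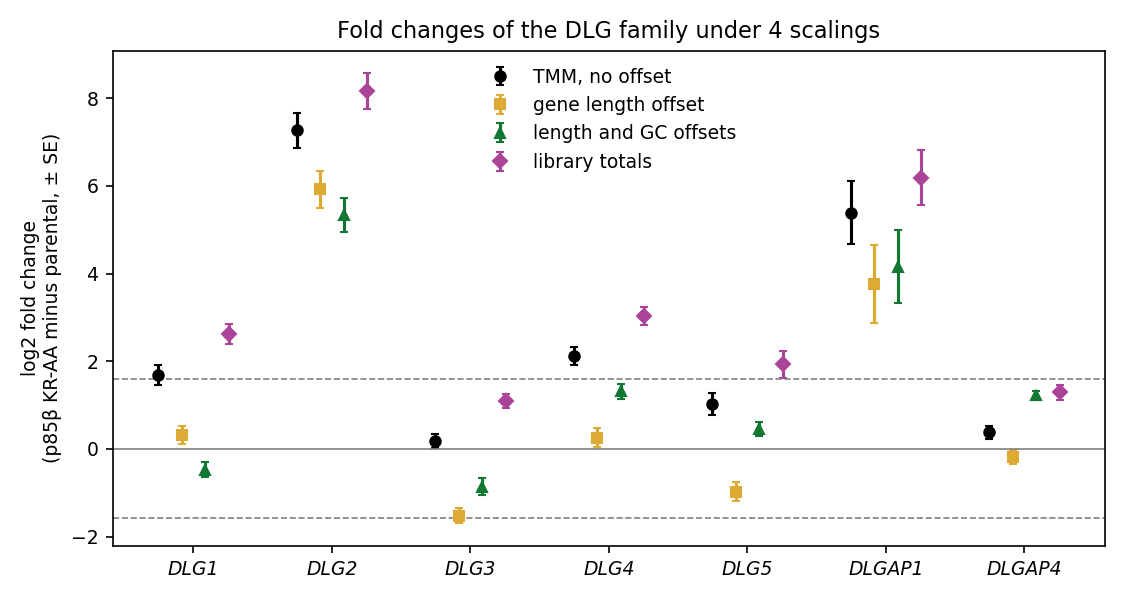
Fitted log2 fold change (p85β KR-AA minus parental, ± SE) of the 7 genes under 4 scalings, with 3 libraries a group; dashed lines mark a fold of 3 in each direction. DLG2 and DLGAP1 stay above the upper line under all 4, DLG1 and DLG4 drop below it with a length offset (0.32 and 0.26), and DLG1 (length and GC offsets), DLG3 (both offsets), DLG5 and DLGAP4 (length offset) change sign.

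Levels per kb of gene length allow members to be set beside each other. In parental cells DLGAP4 was highest, at 14.9 ± 2.30 CPM per kb, then DLG3 at 9.61 ± 1.93, DLG5 at 5.66 ± 2.39, DLG1 at 1.61 ± 0.356, DLG4 at 0.406 ± 0.00165, DLG2 at 0.0228 ± 0.0215 and DLGAP1 at 0.00365 ± 0.00632 CPM per kb (SD, n = 3 each). The ranges of DLG3 and DLG5 overlapped, as did those of DLG2 and DLGAP1, and the other neighbours in this order were apart. In p85β KR-AA cells the order of levels was DLGAP4 (19.4 ± 2.57 CPM per kb), DLG5 (11.52 ± 0.797), DLG3 (10.9 ± 0.177), DLG1 (5.14 ± 1.19), DLG2 (3.51 ± 0.448), DLG4 (1.76 ± 0.218) and DLGAP1 (0.173 ± 0.0149). Here the ranges of DLG5 and DLG3 overlapped, as did those of DLG1 and DLG2. Within every mutant library DLG5 nonetheless stood above DLG3, if only slightly in some, and DLG1 stood above DLG2. DLG2 had moved past DLG4, while DLGAP1 stayed last.

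Within a library, the share of each DLG paralog in the summed CPM per kb of DLG1 to DLG5 does not depend on scaling between libraries. The sum itself does depend on that scaling. With TMM it went from 17.3 ± 1.13 to 32.8 ± 0.673 CPM per kb (SD, n = 3 each), a ratio of 1.895. DLG3 made up 44.64, 67.38 and 54.75% of the sum in parental and 33.63, 32.12 and 33.53% in mutant libraries, so that its share was lower in every mutant library while the ranges of its level overlapped. The exact permutation p for DLG3 was 0.1 (two-sided, 3 against 3), the smallest that this design allows, and none of these shares could therefore pass 0.05. DLG2 made up 0.155, 0.257 and 0% in parental and 10.66, 11.85 and 9.55% in mutant libraries. For DLG4 the shares were 2.36 ± 0.150% and 5.39 ± 0.775%, without overlap and with the same smallest exact p of 0.1. DLG1 shares of 9.34 ± 2.41% and 15.6 ± 3.34% overlapped between groups (exact permutation p = 0.2). The DLG5 share differed less than its spread, at 32.6 ± 13.6% and 35.2 ± 3.14% (exact permutation p = 0.9), and its difference of 2.61 points became −4.78 points without parental library 2. Over the 5 shares no p was adjusted, as none can fall below 0.1.

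**Figure D3:**
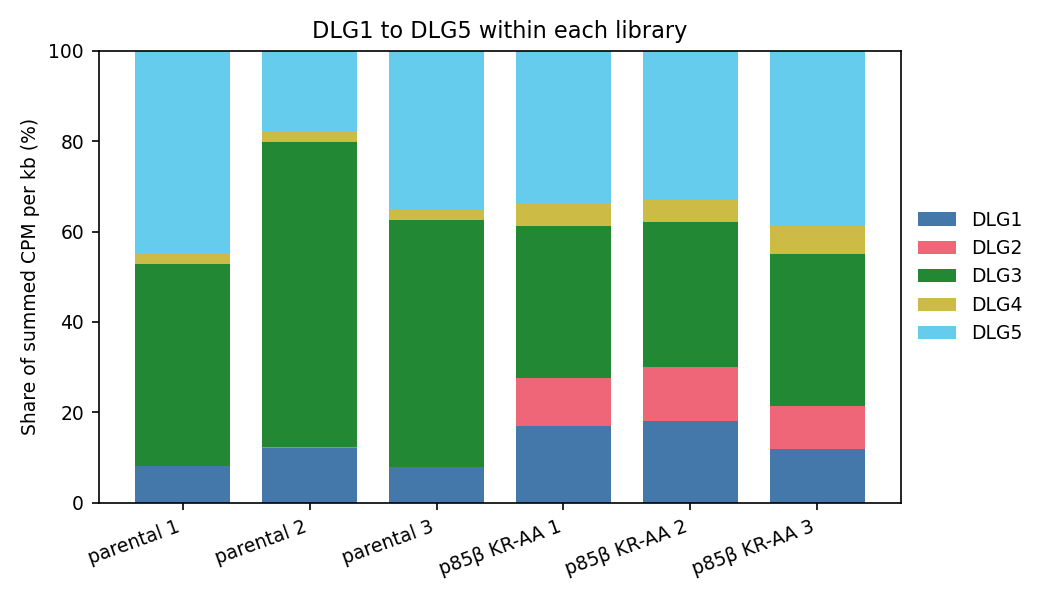
Share of DLG1, DLG2, DLG3, DLG4 and DLG5 in their summed CPM per kb of gene length, in percent, with 1 bar for each of the 6 libraries and colours for genes. DLG2 is not visible in the parental bars and takes 9.55 to 11.85% of the mutant ones, while DLG3 takes 44.64 to 67.38% of the parental and 32.12 to 33.63% of the mutant ones.

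Relatives and partners of the DLG proteins were divided into lists. Of 14 other MAGUK genes, 8 were up-regulated, 2 down-regulated and 4 neither, with a median log2 fold change of 1.81. Among all tested genes 28.6% were up-regulated and 17.6% down-regulated. Counting only those past the filter in both groups, 6 of 12 were up-regulated and 2 down-regulated, against the 19.9% and 20.1% given for all such genes. The largest rises were in MPP4, a MAGUK of photoreceptors (1, 0 and 1 counts in parental libraries, pooled ratio 20.6 with an exact interval of 5.53 to 172.9), and TJP1, the tight junction scaffold ZO-1 (6.05 ± 2.30 to 48.5 ± 7.79 CPM, log2 2.996). Its paralog TJP3 (ZO-3) fell from 314 ± 51.0 to 56.6 ± 4.63 CPM (log2 −2.47), and MPP2 fell from 55.4 ± 8.67 to 17.2 ± 0.938 CPM (log2 −1.69; SD, n = 3 each). MPP4 reached the filter only through the mutant libraries, so that its call is a description. With library totals 0 of the 14 were down-regulated, and 1 of the 14 was up-regulated with a length offset or with both offsets.

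Partners in polarity and at the membrane split by gene as well, with 4 of 10 up-regulated, 2 down-regulated and 4 neither (median log2 fold change 0.85). The shares over all tested genes were 28.6% up-regulated and 17.6% down-regulated. Among the 8 that passed the filter in both groups, 2 were up- and 2 down-regulated, near the shares over all such genes, and with a length offset or with both offsets 1 of the 10 was up-regulated. SCRIB, which works with DLG1 on the basolateral side, was read at 524, 440.1 and 395.1 CPM in parental and 86.52, 86.03 and 96.92 CPM in mutant libraries (log2 −2.34, adjusted p = 1.56e-08 in edgeR). LLGL2, the other arm of that module, fell from 384 ± 38.4 to 97.5 ± 9.32 CPM (log2 −1.98), so that DLG1 was called in one direction and SCRIB and LLGL2 in the other, although with library totals neither of them was called. Up-regulation was largest for LIN7A, a small PDZ adaptor of MAGUK complexes (2, 1 and 5 counts in parental libraries and 608, 527 and 305 in mutant libraries, pooled ratio 87.25, interval 44.2 to 202.5). APC, a tumour suppressor that binds PDZ domains of DLG proteins, rose from 0.442 ± 0.0841 to 6.52 ± 1.58 CPM (log2 3.86). Both LIN7A and APC passed the filter only in the mutant, and their calls are given as a description.

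The postsynaptic list, which holds the receptors and scaffolds that DLG proteins bind in neurons, had calls in both directions, as did all genes. Of 25 genes 19 were tested, of which 5 were up-regulated, 6 down-regulated and 8 neither. Over all tested genes 28.6% were up- and 17.6% down-regulated. The median log2 fold change of the list was 0.65. Setting CNKSR2 to its bound could not move that median, as the bound also lies above it. Of the 14 that passed the filter in both groups, 1 was up- and 6 were down-regulated. These are 7.1% and 42.9%, against 19.9% and 20.1% of all such genes. With library totals 2 of the 19 were down-regulated. CNKSR2, a PDZ scaffold, had 0 counts in parental libraries and 5.68 ± 1.28 CPM in the mutant, at least 26.0-fold above 3 counts in a parental library. HOMER2, which connects SHANK proteins to metabotropic receptors, rose from 0.352 ± 0.275 to 7.45 ± 0.580 CPM (log2 4.37), whereas HOMER3 fell from 106 ± 21.0 to 16.4 ± 0.499 CPM (log2 −2.70). The calls of CNKSR2 and HOMER2 are a description, since both reached the filter only through the mutant libraries. GRIN1, the obligate subunit of NMDA receptors, fell from 9.58 ± 2.66 to 1.56 ± 0.146 CPM (log2 −2.62; SD, n = 3 each). The 6 other genes, DLGAP2, DLGAP3, GRIN2A, NLGN1, NLGN4X and LGI1, had too few reads to be tested.

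Genes with the pattern most like each member were searched among 13739 protein-coding genes by Pearson's r of log2 CPM over the 6 libraries, which share 2 groups and their depths, so that any gene with a clear group difference can score high. For DLG2 they were CLDN1, a tight junction claudin (r = 0.99968, 0.528 ± 0.314 to 41.3 ± 3.04 CPM), BASP1, a membrane protein of growing axons (r = 0.99901, 0.166 ± 0.184 to 98.3 ± 2.01 CPM), and SORBS2, an actin-linked adaptor (r = 0.99893, 0.571 ± 0.285 to 19.3 ± 1.85 CPM; SD, n = 3 each). The closest gene was TMX3 for DLG1 (r = 0.99994), ZNF583 for DLG4 (r = 0.99997), MPRIP for DLG5 (r = 0.99839), RAB3C for DLGAP1 (r = 0.99943), CSRNP2 for DLGAP4 (r = 0.99349) and MRPS22 for DLG3 (r = 0.99163). ZNF583 was at 0 CPM in parental and 0.623 ± 0.124 CPM in mutant libraries (SD, n = 3 each), so that its parental values rest on no reads. The values of r describe likeness over 6 libraries, without a test.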

How the data were processed

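RNA-seq of DLD1 parental and p85β KR-AA cells, 3 libraries each, was analysed. Members and gene lists were chosen with earlier results of these data known. According to the study's methods, total RNA was extracted with TRIzol and SeqPrep and Sickle were applied to the read pairs. The submitters' processing notes name HISAT2 2.1.0, RSEM 1.3.1, DESeq2 1.24.0 and hg18, without their roles. The authors deposited expected counts, which they had not normalized, with a length for each Ensembl gene. Groups follow the labels. The source names of mutant libraries 2 and 3 read R479A and R480A in place of R478A, which their titles and genotypes give.

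Expected counts were rounded and tested by edgeR's quasi-likelihood F test (edgeR 4.0.16, R 4.3.3, TMM scaling, no covariate) after filterByExpr, for which the least count was set to 10 and the least total to 15. The design had assumed whole counts. Thresholds of 3-fold and an adjusted p of 0.01 are those of the study's methods, which name no test. Standard errors come from the log2 fold change and F, and intervals are at 95%. CPM values are TMM-scaled. Pooled ratios have exact conditional intervals, which like the floor of 3 counts cover counting error only. Symbols and positions are from GENCODE 44 lifted to GRCh37 (56745 of 58884 genes). The build behind the counts is not certain. Named list genes are those past the thresholds with the largest rise and fall, at most 2 each way, and the genes most like a member are the 3 for DLG2 and 1 for each other member.

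Alternatives were DESeq2 1.42.0, library totals, no filter, the replicate block, each library left out, a test against 3-fold, a threshold of 0.05 with no fold, and offsets for length and GC content (robust spline with 5 degrees of freedom, MASS 7.3.60.0.1). Without the filter and with the block, edgeR's prior degrees of freedom were infinite, so single-gene p-values from those fits are not given. The code was tested on simulated counts with 200 changed genes. Figures used matplotlib 3.10.9. H3K27me3 data were not analysed here.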

Additional observations from a re-analysis of the deposited data

How the results depend on the processing

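DLG2 and DLGAP1 reached the count filter only through the mutant libraries, and with DLG2 chosen on these values their calls under the alternatives are no sign of stability. The count of up-regulated members was 3 to 4 with a library left out, 3 when tested against 3-fold, 5 with library totals, 6 at an adjusted p under 0.05 with no fold threshold, and 2 with an offset for gene length or with offsets for length and GC content. DLG5 was the member gained with library totals. With the length offset the log2 fold change was −1.52 for DLG3, −0.97 for DLG5 and −0.18 for DLGAP4, and with length and GC offsets it was −0.47 for DLG1 and −0.86 for DLG3. The offsets also take out any real relation to these properties, and the cause of the shift was not tested.

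Over all genes, 7052, 2825, 2087, 2974 and 7373 were up-regulated with library totals, the length offset, length and GC offsets, the test against 3-fold and the 0.05 threshold, and 973, 1779 and 5738 were down-regulated with library totals, the test against 3-fold and the 0.05 threshold. The other MAGUK genes had 1, 1 and 5 up with the length offset, both offsets and the test against 3-fold, and 0, 1, 0 and 1 down with library totals, the length offset, both offsets and the test against 3-fold (1 to 2 with a library left out). Polarity partners had 1, 1 and 2 up with the length offset, both offsets and the test against 3-fold, and 0, 1 and 4 down with library totals, both offsets and the 0.05 threshold. Postsynaptic partners had 9, 3 and 9 up with library totals, both offsets and the 0.05 threshold, and 2, 9 and 3 down with library totals, the length offset and both offsets. The cause of these shifts was not tested.

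The DLG2 share was higher by 8.44 points from counts not divided by length, against 10.55 points per kb. The DLG5 share difference ran from −4.78 to 8.67 points with a library left out. With the replicate number as a block, 4 members were up-regulated, as were 4626 genes in all, with 2827 down-regulated. These counts rest on the p-values of a fit whose prior degrees of freedom were infinite, and they are no sign of stability. Deviations from the group means were not shared between libraries of one number (correlations of −0.136, 0.119 and −0.0447), so the numbers do not pair the libraries. At 3 counts per library, a parental level of DLG2 or DLGAP1 under 0.2185 CPM was at or near the detection limit. The counting intervals do not cover the choice of scaling, as the offsets put DLG2 at a log2 fold change of 5.92 and 5.34.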
